A study of Mus musculus with 47 samples.

Results

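Glutathione transferases were followed as 10 genes of the exon count table, chosen by symbol: Gsta1, Gsta2, Gsta3, Gsta4, Gstm1, Gstm3, Gstk1, Gstp1, Mgst1 and Mgst2. All 10 were found among the 38087 genes of the table. RNA was sequenced from germ-free (GF) mice, which were reared without microorganisms, and from conventionally raised (convR) mice, which carry a flora. Every animal was a male C57BL/6j mouse of 15 to 16 weeks fed ad libitum. Each group is one tissue of one status, namely GF ileum (11 libraries), convR ileum (12), GF duodenum (12) and convR duodenum (12), the ileum being the last and the duodenum the first part of the small intestine. Libraries were taken at ZT2, 6, 10, 14, 18 and 22, where ZT is zeitgeber time in hours, with 2 libraries per time and group except 1 for GF ileum at ZT2. RNA was extracted from disrupted tissue, so a value is a mixture over all its cells, and fewer cells of a type and less RNA per cell cannot be told apart. The labels do not say whether 2 libraries of a group and time come from separate animals, so each p-value measures the spread between libraries.

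Glutathione transferases join the tripeptide glutathione to reactive, electrophilic molecules, which makes these more soluble and ready for export and for breakdown to mercapturic acids. The cytosolic enzymes fall into classes by sequence, among them Alpha (Gsta), Mu (Gstm) and Pi (Gstp). The Kappa enzyme (Gstk) lies in mitochondria and peroxisomes, and the microsomal ones (Mgst) are membrane proteins of another fold. In the small intestine they are known for handling food-borne and bile-borne electrophiles and products of lipid peroxidation in the absorptive cells of the epithelium. In liver, several Alpha and Mu genes are known targets of the transcription factor Nrf2, encoded by Nfe2l2, which binds antioxidant response elements, and of the xenobiotic receptors Ahr, Pxr and Car.

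The genes are spread over the mouse genome (build mm10, GENCODE M21 annotation), and each is annotated as protein-coding. Gsta4 (chr9:78182774-78209349, plus strand), Gsta1 (chr9:78230656-78242684, plus strand) and Gsta2 (chr9:78331018-78355788, minus strand) lie near each other on chromosome 9, while Gsta3 is on chromosome 1 (chr1:21240589-21265661, plus strand). Gstm3 (chr3:107963696-107969283, minus strand) and Gstm1 (chr3:108012255-108017973, minus strand) lie near each other on chromosome 3, which also holds Mgst2 (chr3:51660360-51682677, plus strand). Gstk1 (chr6:42245935-42250447, plus strand) and Mgst1 (chr6:138140316-138156755, plus strand) lie far apart on chromosome 6. Gstp1 is on chromosome 19 (chr19:4035407-4037985, minus strand).

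Promoters were read from RefSeq (GRCm38.p6) as 250 bases before and 50 after each annotated start. Of the 10 genes, 9 had an entry and Gsta4 is named only. The first pair is shown because Gsta1 and Gsta2 moved together in the counts and their promoters are alike, with 76.7% identical letters over 317 aligned columns. The same comparison gave 61.3% for Gstm1 against Gstm3 and 51.6% for Gsta1 against Gstm3, which are of different classes. Capitals mark GCGTG, the core letters of the xenobiotic response element bound by Ahr. The core begins at -2 in Gsta1, where it runs across the start, and at -7 in Gsta2, where it lies just before the start.
Gsta1 promoter, chr9:78230419-78230718, plus strand: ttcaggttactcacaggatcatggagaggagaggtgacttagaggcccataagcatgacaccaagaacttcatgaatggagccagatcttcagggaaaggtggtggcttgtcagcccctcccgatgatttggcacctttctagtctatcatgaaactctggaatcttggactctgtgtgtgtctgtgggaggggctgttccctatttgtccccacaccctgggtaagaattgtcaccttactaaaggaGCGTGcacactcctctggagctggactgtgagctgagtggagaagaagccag
Gsta2 promoter, chr9:78347096-78347395, minus strand: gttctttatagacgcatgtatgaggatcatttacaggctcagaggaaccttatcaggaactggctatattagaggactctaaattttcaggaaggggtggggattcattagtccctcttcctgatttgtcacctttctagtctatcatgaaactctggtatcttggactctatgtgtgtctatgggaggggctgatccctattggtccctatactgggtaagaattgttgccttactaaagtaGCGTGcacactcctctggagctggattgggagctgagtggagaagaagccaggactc

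The second pair is shown because Gsta3 and Mgst1 are the members with a match to TGACNNNGC, a short form of the antioxidant response element, which is in capitals. The match starts at -121 in Gsta3. In Mgst1 it is on the other strand, so that its reverse complement is read, and it covers the bases from -56 on.
Gsta3 promoter, chr1:21240335-21240634, plus strand: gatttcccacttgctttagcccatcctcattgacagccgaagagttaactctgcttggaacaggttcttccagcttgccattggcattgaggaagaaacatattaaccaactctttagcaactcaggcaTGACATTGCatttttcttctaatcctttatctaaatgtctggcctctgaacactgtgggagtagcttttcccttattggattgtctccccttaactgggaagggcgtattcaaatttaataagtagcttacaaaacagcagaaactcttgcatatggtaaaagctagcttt
Mgst1 promoter, chr6:138140277-138140576, plus strand: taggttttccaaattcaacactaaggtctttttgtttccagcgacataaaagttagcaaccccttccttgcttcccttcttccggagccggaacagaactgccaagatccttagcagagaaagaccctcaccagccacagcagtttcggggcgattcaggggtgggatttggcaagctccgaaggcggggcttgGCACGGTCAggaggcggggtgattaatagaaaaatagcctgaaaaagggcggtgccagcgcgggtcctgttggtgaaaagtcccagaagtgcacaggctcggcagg

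Both strands were searched. TGACNNNGC was present in 12.4% of 32851 promoters of the same length, and GCGTG, which Gstm1 and Gstp1 held too, in 32.4%. CACGTG, the E-box bound by the clock factors, was present in 7.15% of all promoters and TTATGTAA, the D-box bound by Dbp, Tef and Hlf, in 0.938%. Neither was found in any promoter of a member. A match describes letters in this window and no binding was measured.

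Depth ran from 22546800 to 41911085 exon counts per library, with a median of 31935017. The tissue labels fitted their markers: the ileal bile acid binding protein gene Fabp6 was at least 206.3 CPM (read counts scaled to the same library total) in ileum and at most 2.41 CPM in duodenum, while the duodenal factor gene Pdx1 was at most 0.2084 CPM in ileum and at least 9.731 CPM in duodenum. In all, 9 of the 47 libraries stood apart. In duodenum these were GF ZT6 replicate 1, GF ZT22 replicates 1 and 2, convR ZT6 replicate 1, convR ZT14 replicates 1 and 2, and convR ZT22 replicate 2, which carried pancreatic or gastric transcripts above 200 CPM or, for convR ZT6 replicate 1, a TMM factor of 1.273. In ileum they were GF ZT22 replicate 2 and convR ZT6 replicate 2, with Fabp6 at 599.8 and 206.3 CPM. Results that rest on these libraries are given below without them too, an alternative chosen after the data had been seen.

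Levels between genes were set side by side per kb of exon, as CPM per kb. The 10 genes summed to 436.3 ± 39.02 CPM per kb in GF ileum and 341.5 ± 37.64 in convR ileum (SD, n = 11 and 12). They summed to 1547 ± 408.4 CPM per kb in GF duodenum and 1159 ± 584.5 in convR duodenum (SD, n = 12 each). The ileal sum was thus lower than the duodenal one in both statuses, and its spread between libraries was far smaller. The make-up differed with the tissue. In GF ileum, Mgst1 made up 26.86 ± 2.01% of the sum, Gstp1 26.66 ± 1.99% and Gsta1 18.85 ± 3.04% (SD, n = 11). In GF duodenum, Gsta1 made up 45.28 ± 5.99% and Gsta4 18.77 ± 3.53%, with Gstp1 at 10.6 ± 3.7% and Mgst1 at 6.3 ± 1.21% (SD, n = 12). By this measure an Alpha gene led in the duodenum and a microsomal and a Pi gene in the ileum. The ranking depends on the deposited exon lengths, which can differ from the length of the longest coding transcript. They are 3659 against 603 bases for Mgst2, 2013 against 1167 for Mgst1, 2620 against 1311 for Gstm3 and 744 against 821 for Gstp1. With transcript lengths the order within a group could differ.

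With a flora the order was the same in kind, but the shares of the Mu genes were larger. In convR ileum Gsta1 held 10.63 ± 2.52%, Gstm1 6.59 ± 0.831% and Gstm3 4.59 ± 1.94% (SD, n = 12), where the GF ileum had 3.84 ± 0.422% for Gstm1 and 1.26 ± 0.392% for Gstm3. In convR duodenum Gsta1 held 34.56 ± 6.2%, Gstm3 12.47 ± 6% and Gstm1 9.42 ± 2.55% (SD, n = 12). The GF duodenum had 5.7 ± 1.45% for Gstm3 and 4.94 ± 1.05% for Gstm1. By this measure Gsta2 was the least abundant member in every group, with at most 0.573% of the sum. Shares add to a fixed total, so that 1 large share lowers the others.

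**Figure D1:**
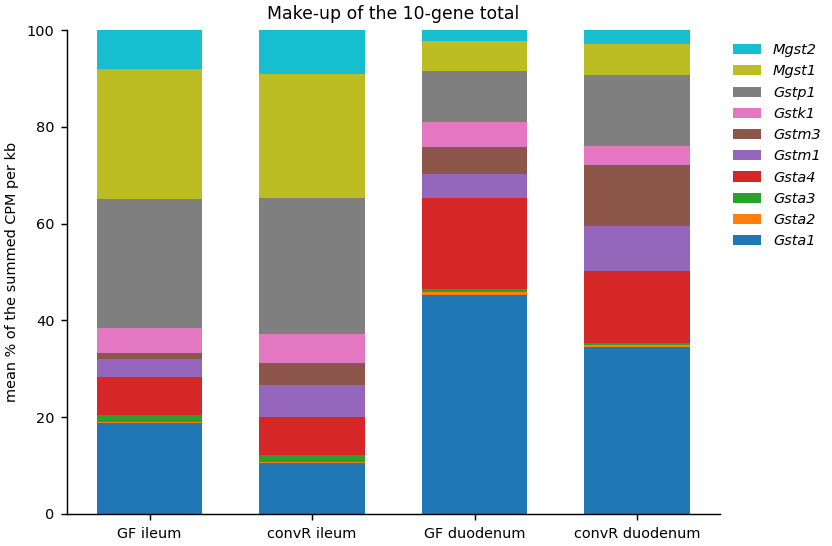
Share of each of the 10 genes in their summed CPM per kb (y axis, percent, mean over libraries) in the 4 groups. Gsta1 fills 45.28% of the bar for GF duodenum and 18.85% of that for GF ileum, and the Mu genes are wider in the convR bars.

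**Figure D2:**
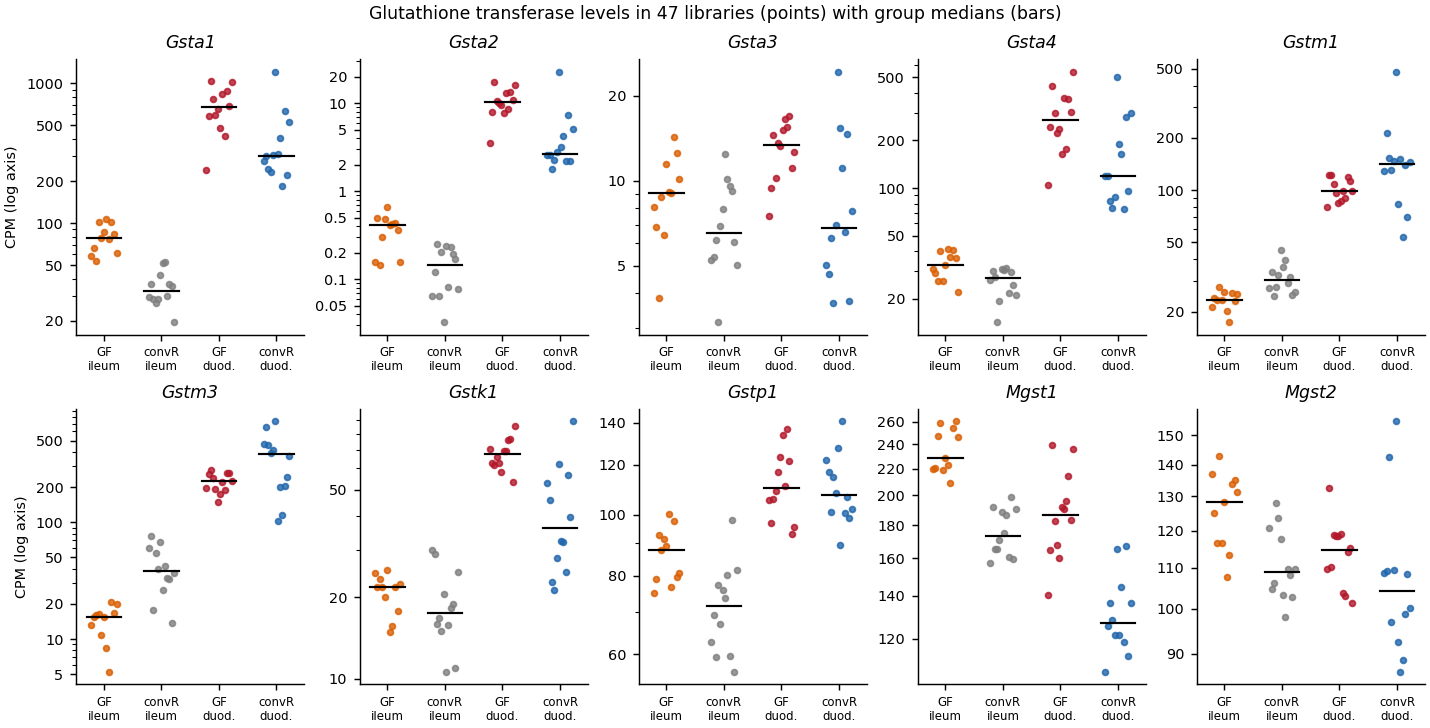
Level of each of the 10 genes in every library (points, y axis, CPM, log scale) in the 4 groups, with a bar at each group's median. Gsta1, Gsta2, Gsta4, Gstm1 and Gstm3 sit lower in all ileum libraries than in any duodenum library of the same status, while Mgst2 spans 86.31 to 155 CPM over all groups.

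The main question of the design is how the tissues of GF mice differ from those of convR mice. In the ileum 6 of the 9 genes tested rose in GF mice, 2 fell and 1 did not pass the test (adjusted p under 0.05, edgeR's quasi-likelihood test with Benjamini-Hochberg adjustment over all 18082 genes tested). The same test called 42.0% of all genes, 19.5% as higher and 22.4% as lower. The median log2 difference was 0.31 over the 9 genes and 0.007 over all genes. In the duodenum 7 of the 10 genes rose in GF mice and none fell, with 3 not passing, against 46.3% of all 17986 genes called, 22.5% as higher and 23.8% as lower. There the median was 0.69 over the 10 genes and -0.008 over all genes. The members were chosen with earlier results of these data known. A share or median beyond that of all genes is therefore a description and not independent evidence. The duodenal count depended on which libraries were used: without the libraries that stood apart 2 of the 10 passed, Gstk1 and Mgst1, with 43.2% of all genes called, and without replicate 1 only Mgst1 did, with 35.4% called. In ileum 7 of the 9 passed without the libraries that stood apart, with 39% of all genes called. It was 5 of 9 without replicate 1, with 33.4% of all genes called, and 5 of 9 without replicate 2, with 22.7% called. In both tissues the Alpha and microsomal genes made up most of those that rose. The Mu genes of the 10 passed only in ileum, where they fell.

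**Figure D3:**
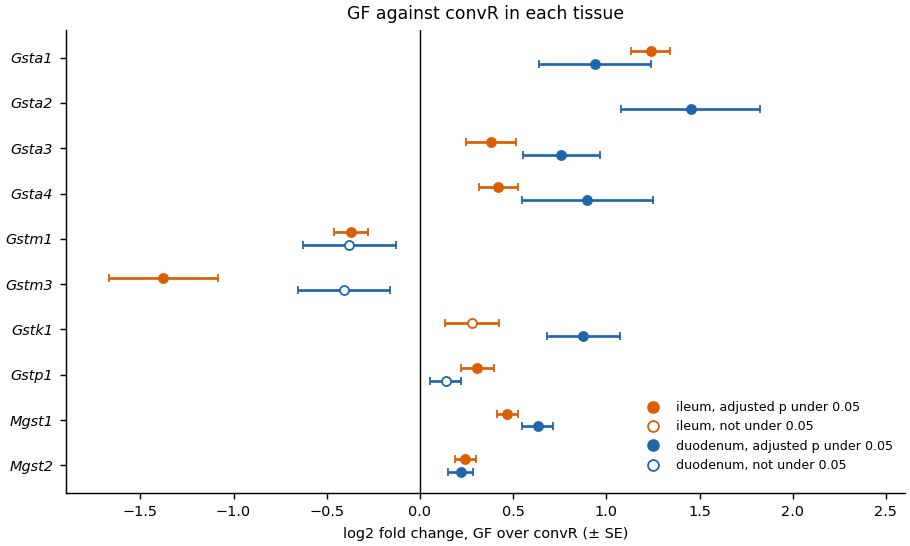
Log2 difference of GF over convR (x axis) for each gene, with bars of 1 SE either way, ileum above duodenum and filled points where the adjusted p was under 0.05. All Alpha, Kappa, Pi and microsomal values lie right of 0, where GF is higher, and both Mu genes lie left of it, with Gstm3 in ileum at -1.38.

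Among the Alpha genes, Gsta1 encodes an abundant enzyme that acts on lipid hydroperoxides as well as on electrophiles. Its lowest, median and highest levels were 53.89, 78.35 and 106.1 CPM in GF ileum, against 19.54, 32.83 and 52.3 CPM in convR ileum. Every GF ileum library thus lay above every convR one. Overlap of GF and convR libraries was counted for the members only, here and below. How common such separation is among all genes is therefore not known. The log2 difference was 1.24 ± 0.10 (SE), a 2.36-fold higher level, with an adjusted p of 1.66e-08 by edgeR. In the duodenum Gsta1 had 241.5, 675.2 and 1049 CPM in GF mice, against 183.6, 304.7 and 1216 CPM in convR mice. These groups overlapped, since the highest library of all was convR ZT10 replicate 2, and both GF libraries lay above both convR libraries at 3 of 6 times. The difference was 0.94 ± 0.30 with an adjusted p of 0.0155 by edgeR.

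Reads of Gsta1 are not certain to be its own. Of the 100-base windows of its transcript, 81.8% recur without a change in Gm3776, Gsta2 or Gm10639, and 35% of those of Gsta2 recur in the same group. How the counting program treated reads with several matches is not given in the sources used here. Gm10639, a predicted Alpha-class gene, had 16.7 ± 4.1 CPM in GF ileum and 7.48 ± 1.9 CPM in convR ileum (SD, n = 11 and 12), with a log2 difference of 1.19 and an adjusted p of 1.27e-09 by edgeR.

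Gsta2 encodes a close relative of Gsta1. In the ileum it had 4 to 22 counts per library in GF mice and 1 to 8 in convR mice. This was too few for the filter on low counts, and the gene was not tested there. In the duodenum it had 3.516, 10.29 and 17.17 CPM in GF mice, against 1.772, 2.671 and 22.78 CPM in convR mice. GF libraries lay above both convR libraries at 5 of 6 times, and only convR ZT10 replicate 2 stood above the GF range. The difference was 1.45 ± 0.37 on the log2 scale with an adjusted p of 0.0039 by edgeR.

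Gsta3 encodes an Alpha enzyme that in mouse liver detoxifies the aflatoxin epoxide. It had 3.844, 9.027 and 14.35 CPM in GF ileum, against 3.162, 6.536 and 12.42 CPM in convR ileum. The ranges overlapped widely, and GF libraries lay above both convR ones at 2 of 6 times, of which ZT2 has 1 GF library. The difference of 0.38 ± 0.14 had an adjusted p of 0.0294 by edgeR. Duodenal levels were 7.484, 13.44 and 17 CPM in GF mice, against 3.707, 6.779 and 24.36 CPM in convR mice, a difference of 0.76 ± 0.21 with an adjusted p of 0.0055 by edgeR. Gsta3 overlaps the annotated antisense gene Gm28836 on the opposite strand. Whether the counting used strand is not given in the sources used here, so reads of these genes may not be told apart. The ileal call was lost without any 1 of 6 libraries, with differences of 0.32 to 0.35 and adjusted p of 0.050 to 0.069 by edgeR: GF ZT2 replicate 2, GF ZT6 replicate 1, GF ZT18 replicate 2, GF ZT22 replicate 1, and convR ZT22 replicates 1 and 2.

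Gsta4 encodes the Alpha enzyme with high activity towards hydroxynonenal, a reactive aldehyde from oxidised lipids. In the ileum it had 22.1, 32.9 and 41.25 CPM in GF mice, against 14.28, 26.94 and 31.37 CPM in convR mice. Of 11 GF libraries, 6 lay above all convR libraries, and the difference was 0.42 ± 0.11 with an adjusted p of 0.0034 by edgeR. Its duodenal levels were 104, 269.7 and 544.5 CPM in GF mice, against 74.24, 119.4 and 505.1 CPM in convR mice. The difference was 0.90 ± 0.35 with an adjusted p of 0.0439 by edgeR, and GF libraries lay above convR ones at 2 of 6 times. Leaving out any 1 of 15 libraries took the adjusted p above the threshold, to at most 0.0866, and this was so for GF ZT2 replicate 2, GF ZT6 replicates 1 and 2, GF ZT14, ZT18 and ZT22 replicate 2, both convR libraries at ZT2, ZT6 and ZT14, and convR ZT10, ZT18 and ZT22 replicate 1. The difference then lay between 0.77 and 0.92.

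A single convR duodenum library, ZT10 replicate 2, was the highest of its group for 7 of the 10 genes, namely all 4 Alpha genes, both Mu genes and Mgst2. It had 1216 CPM of Gsta1, where the 11 other convR libraries had 183.6 to 632.5, and 505.1 CPM of Gsta4, where the others had 74.24 to 298.9. Its mean over 5 duodenum markers was 409.9 CPM, the highest of the convR duodenum libraries, which ran from 87.39 with a median of 124.3 CPM. In GF duodenum the same marker mean ran from 70.38 to 413.9 with a median of 202 CPM. None of the 5 markers was at 0 in either group. They weighed unequally in the mean: Slc40a1 ran from 27.9 to 1481 CPM in convR and from 6.8 to 1168 CPM in GF duodenum. Gata4 ran from 115.4 to 169.1 CPM and Onecut2 from 182.1 to 386.9 CPM in convR duodenum. Pdx1 and Cybrd1 also varied widely, from 13.71 to 92.26 and from 4.481 to 102.9 CPM in convR duodenum. In GF duodenum they ran from 9.731 to 114.2 and from 2.935 to 282.1 CPM. A high marker mean thus follows Slc40a1 most, by the size of its range in CPM. Without that convR library the GF over convR differences in duodenum were 1.15 for Gsta1, 1.81 for Gsta2, 0.94 for Gsta3 and 1.17 for Gsta4, with adjusted p of 0.0012, 1.7e-05, 3.9e-05 and 0.0043 by edgeR.

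The levels of Gsta1 and Gsta4 were set beside this marker mean in each library, in which Slc40a1 weighs most where it is high. Among GF libraries, ZT22 replicate 2 had a marker mean of 413.9 CPM with 1026 CPM of Gsta1 and 544.5 CPM of Gsta4, and ZT6 replicate 1 had 336.0 CPM with 1049 and 443.6 CPM. The 3 GF libraries with the lowest marker means, 70.38 to 89.38 CPM, had the 3 lowest levels of both genes, 241.5 to 482.3 CPM of Gsta1 and 104 to 175.6 CPM of Gsta4. Among convR libraries, ZT10, ZT18 and ZT22 replicate 2 had the highest marker means, 195.8 to 409.9 CPM, and the highest levels of both genes. The 9 other convR libraries, with marker means of 87.39 to 137.4 CPM, showed no such order: Gsta1 was at 306.7 CPM in the library with the lowest of these means and at 231.4 CPM in the one with the highest. Enterocyte markers had a median over libraries of 4354 CPM in GF and 3948 CPM in convR duodenum (10 markers, none at 0). They ran from 3633 to 5057 CPM in GF and from 1986 to 4572 CPM in convR duodenum. Of these markers, Alpi had a median of 3094 CPM in GF and 1612 CPM in convR duodenum, and Vil1 2432 and 2080 CPM. B and plasma cell markers were far lower in GF mice, with a median of 160.6 CPM against 1482 CPM in convR duodenum (5 markers, none at 0). The part of these markers in the differences of the genes was not tested. Without the 9 libraries that stood apart the duodenal calls were lost for Gsta1 (0.60, adjusted p = 0.28), Gsta2 (0.95, 0.16), Gsta3 (0.64, 0.10), Gsta4 (0.60, 0.36) and Mgst2 (0.20, 0.056) by edgeR, all 5 still with higher levels in GF mice.

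**Figure D4:**
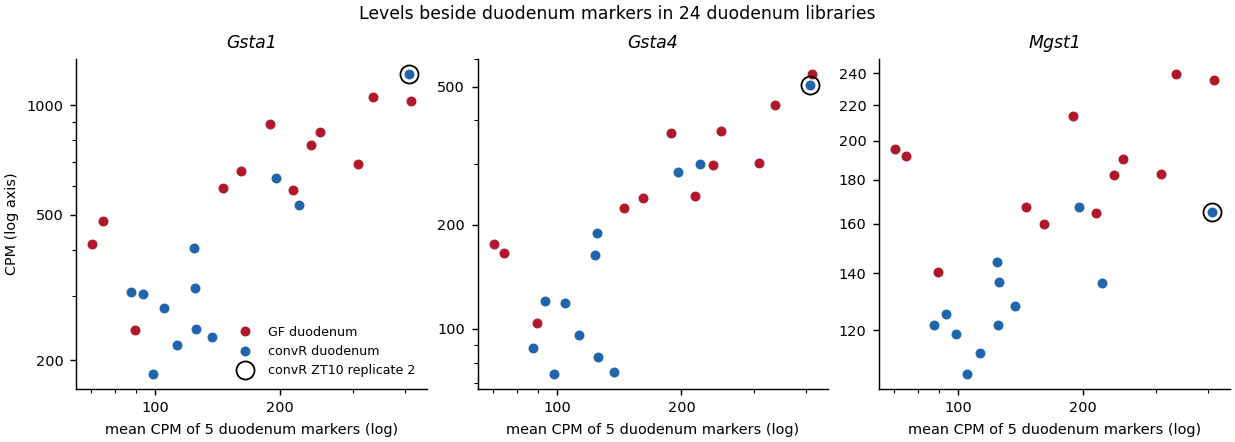
Levels of Gsta1, Gsta4 and Mgst1 (y axis, CPM, log scale) against the mean of 5 duodenum markers (x axis, CPM, log scale) in each duodenum library, GF and convR in separate colours and convR ZT10 replicate 2 ringed. The ringed library stands at 409.9 CPM of markers and 1216 CPM of Gsta1, beside the GF library at 413.9 CPM of markers and 1026 CPM of Gsta1. Of the 5 markers Slc40a1 varied most, up to 1481 CPM in convR duodenum.

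Both Mu genes among the members went the other way in the ileum. This does not hold for the class, since Gstm7 and Gstm6 rose there by 1.51 and 0.86, and Gstm2, Gstm4 and Gstm5 did not pass. Gstm1, whose enzyme conjugates epoxides and other electrophiles, had 17.41, 23.23 and 27.66 CPM in GF ileum, against 24.58, 30.43 and 45.01 CPM in convR ileum. GF libraries, 1 at ZT2 and 2 at each other time, lay below both convR ones at 5 of 6 times, and 7 of 11 GF libraries lay below all convR libraries. The log2 difference was -0.37 ± 0.09 with an adjusted p of 0.0028 by edgeR. Gstm3, a Mu gene near Gstm1, had 5.259, 15.47 and 20.67 CPM in GF ileum, against 13.73, 38.23 and 76.5 CPM in convR ileum. It fell by 1.38 ± 0.29 on the log2 scale, to 0.385 of the convR level, with an adjusted p of 0.0011 by edgeR. In the same libraries the enterocyte markers, averaged within a library, had a median over libraries of 2818 CPM in GF and 2753 CPM in convR ileum (10 markers, none at 0). Paneth cell markers had 1151 CPM in GF and 2539 CPM in convR ileum (6 markers, none at 0), and B and plasma cell markers 37.13 CPM in GF and 625.1 CPM in convR ileum (5 markers, none at 0). Their part in the ileal differences was not tested.

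In the duodenum neither Mu gene passed. Gstm1 had 80.45, 98.91 and 122.7 CPM in GF mice, against 53.88, 142.2 and 480.9 CPM in convR mice, a log2 difference of -0.38 ± 0.25 with an adjusted p of 0.227 by edgeR. Gstm3 had 147.9, 223.4 and 277.5 CPM in GF mice, against 103, 380.9 and 732.8 CPM in convR mice, a difference of -0.41 ± 0.25 with an adjusted p of 0.187 by edgeR. Without convR ZT10 replicate 2 the differences were -0.19 for Gstm1 (adjusted p = 0.416 by edgeR) and -0.30 for Gstm3 (0.295). The convR libraries spread over a much wider range than the GF ones for both genes. Reads are shared for 13.8% of the 100-base windows of Gstm3 and 7.73% of those of Gstm1, in part with the pseudogene Gstm2-ps1 and with Gm8834.

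Gstk1 encodes the Kappa enzyme of mitochondria and peroxisomes. In the duodenum it had 53.12, 67.67 and 86.11 CPM in GF mice, against 21.26, 35.98 and 89.37 CPM in convR mice. GF libraries lay above convR ones at 4 of 6 times, and the difference was 0.88 ± 0.20 with an adjusted p of 0.0013 by edgeR. In the ileum it had 14.93, 21.83 and 25.13 CPM in GF mice, against 10.63, 17.55 and 29.84 CPM in convR mice, a difference of 0.28 ± 0.15 that did not pass (adjusted p = 0.13). Without convR ileum ZT22 replicate 2 it passed there (0.37, adjusted p = 0.0357 by edgeR).

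Gstp1 encodes the Pi enzyme, which also binds stress kinases. It had 75.11, 87.93 and 100.2 CPM in GF ileum, against 56.26, 71.5 and 98.11 CPM in convR ileum. The ranges overlapped and GF libraries lay above convR ones at 4 of 6 times, with a difference of 0.31 ± 0.09 and an adjusted p of 0.0084 by edgeR. Duodenal levels were 93.08, 110.1 and 136.8 CPM in GF mice, against 89.61, 107.4 and 140.9 CPM in convR mice, a difference of 0.14 ± 0.08 with an adjusted p of 0.187. Of the 100-base windows of Gstp1, 52.8% recur in Gstp2 or Gstp-ps, so its counts may include theirs.

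Mgst1 encodes a membrane enzyme of the endoplasmic reticulum and the outer mitochondrial membrane that conjugates electrophiles and reduces lipid hydroperoxides. In the ileum it had 208.9, 228.3 and 260.5 CPM in GF mice, against 157.1, 172.8 and 198.7 CPM in convR mice. The groups did not overlap, GF being higher, though how many of all genes separate in this way was not counted. The difference was 0.47 ± 0.06 with an adjusted p of 1.25e-06 by edgeR. In the duodenum it had 140.5, 186.9 and 239.4 CPM in GF mice, against 106.8, 126.9 and 167.3 CPM in convR mice. GF libraries lay above convR ones at 5 of 6 times, and 9 of 12 lay above all convR libraries. The difference there was 0.63 ± 0.08 with an adjusted p of 3.18e-06 by edgeR, and it was called in all 33 alternatives run, including without the libraries that stood apart.

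Mgst2 encodes an enzyme that can make cysteinyl leukotrienes. It had 107.8, 128.4 and 142.8 CPM in GF ileum, against 98.05, 108.9 and 128.1 CPM in convR ileum, a difference of 0.24 ± 0.06 with an adjusted p of 0.0014 by edgeR. Duodenal levels were 101.3, 114.8 and 132.7 CPM in GF mice, against 86.31, 104.3 and 155 CPM in convR mice, a difference of 0.22 ± 0.07 with an adjusted p of 0.0091. These are the smallest differences that passed in either tissue. Without the libraries that stood apart the duodenal one no longer passed (0.20, adjusted p = 0.056 by edgeR). Mgst2 overlaps Gm37261, a transcript of the annotation's TEC class on the same strand.

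Whether the GF effect itself differed between the tissues was tested as an interaction, ileum minus duodenum. None of the 10 genes passed in the fit without a replicate block, while 12.3% of all genes did, 4.58% as higher and 7.69% as lower. At an unadjusted p under 0.05 there were 4841 genes, among them 2 members. The difference was -0.97 ± 0.38 for Gstm3 (adjusted p = 0.10 by edgeR) and -0.59 ± 0.25 for Gstk1 (0.13), and DESeq2 called neither (0.062 and 0.085). For Gsta1 it was 0.30 ± 0.33 and for Mgst1 -0.16 ± 0.10. Gstm1, Gstm3 and Gstp1 passed in ileum and not in duodenum, and Gstk1 in duodenum and not in ileum. With the replicate number as a block, the difference between the tissues passed for Gstm3 (-1.04, adjusted p = 0.029 by edgeR) and Gstk1 (-0.64, 0.0109), with 15% of all genes called, and not for Gstm1 or Gstp1. The numbers deviated together at every time between the convR tissues, and only at some times between the other groups. Without the block, leaving out convR ileum ZT22 replicate 1 brought Gstm3 past the threshold (-1.10, adjusted p = 0.0464), and leaving out convR duodenum ZT22 replicate 2 did so for Gstk1 (-0.72, 0.0331).

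Between the regions, 8 of the 10 genes were lower in ileum than in duodenum of GF mice and 1 was higher, against 66.5% of all genes called, 33.4% as lower and 33.2% as higher. In convR mice 7 were lower and 1 higher, against 49.6% of all genes called, 24.8% as lower and 24.9% as higher. Gsta2 differed most, by -5.02 ± 0.22 in GF and -4.96 ± 0.43 in convR mice on the log2 scale, with adjusted p of 2.4e-13 and 9.9e-09 by edgeR. Its ileal level rests on few counts, as given above. Gsta1 differed by -3.27 ± 0.20 in GF and -3.52 ± 0.28 in convR mice, which is 0.104 and 0.0871 of the duodenal level. The ileum and duodenum libraries did not overlap in either status for Gsta1, Gsta2, Gsta4, Gstm1 and Gstm3, nor in GF mice for Gstk1. Overlap was not counted over all genes, so how common such separation is between these tissues is not known here.

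Gstm3 differed by -4.07 ± 0.19 on the log2 scale in GF and by -3.05 ± 0.27 in convR mice. Gsta4 differed by -3.25 ± 0.23 in GF and -2.71 ± 0.31 in convR mice, and Gstm1 by -2.25 ± 0.09 and -2.27 ± 0.24. The differences were smaller for Gstk1, at -1.81 in GF and -1.18 in convR mice, and for Gstp1, at -0.51 and -0.68. All of these passed in both statuses. Gsta3 passed in GF mice at -0.69 ± 0.13 (adjusted p = 0.00014) and not in convR mice at -0.30 ± 0.20 (0.214 by edgeR). Mgst1 was the exception in direction, with higher levels in ileum by 0.19 ± 0.06 in GF mice (adjusted p = 0.0068) and 0.36 ± 0.08 in convR mice (0.0005 by edgeR). Mgst2 did not pass in either status, with differences of 0.03 ± 0.05 in GF and 0.006 ± 0.064 in convR mice.

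The time of day was the other axis of the design. A 24 h cosine was fitted, and its size is given as the log2 range between peak and trough. In the duodenum no member passed in GF or in convR mice, where 1.37% and 0.828% of all genes did. At an unadjusted p under 0.05 there were 2180 and 2658 genes of the 17986. DESeq2 called 574 and 626 genes, and Gsta3 and Gstm3 in convR duodenum were among them, with adjusted p of 0.00067 and 0.0011. Both lay close to the threshold with edgeR. In convR duodenum Gsta3 had a range of 1.84 with a peak at ZT13.6 (adjusted p = 0.0536) and Gstm3 a range of 1.96 with a peak at ZT5.1 (adjusted p = 0.0597), and both passed without convR ZT10 replicate 2 (0.0267 and 0.0304). Gsta3 also passed with RLE size factors (0.0488) and without GF ZT6 replicate 1 (0.0443) or convR ZT22 replicate 2 (0.047). Gstm3 also passed with ZT as a factor (0.0295), with library size only (0.0367) and without either convR library at ZT6 (0.0393 and 0.0389).

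In the ileum Gsta3 was the 1 member of the 9 tested to pass, in both statuses. In GF ileum its range was 1.13 with a peak at ZT18.3 and an adjusted p of 0.0373 by edgeR, where 0.940% of all genes passed. In convR ileum the range was 1.26 with a peak at ZT15.1 and an adjusted p of 0.0178, where 0.752% passed. Mean levels in GF ileum at ZT2, 6, 10, 14, 18 and 22 were 8.06, 5.36, 7.58, 10.28, 11.69 and 11.37 CPM. In convR ileum at the same times they were 5.31, 4.67, 7.42, 11.31, 9.42 and 5.55 CPM. Both series were lowest at ZT6, and the highest mean came at ZT18 in GF and at ZT14 in convR ileum.

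The calls for Gsta3 in ileum rest on few libraries. With ZT as 6 levels in place of the cosine they were lost, with adjusted p of 0.46 in GF and 0.103 in convR ileum. The GF call was also lost without any 1 of 10 libraries, with adjusted p of 0.0502 to 0.157: GF ZT2 replicate 2, ZT10 replicate 2, ZT18 replicate 2, both replicates at ZT6, ZT14 and ZT22, and convR ZT14 replicate 2. The convR call was lost without convR ZT14 replicate 1 (0.0882). A rhythm that differs between GF and convR mice was called for none of the genes in either tissue (0.00%), by edgeR or DESeq2. The count at an unadjusted p under 0.05 was 739 genes in duodenum and 608 in ileum. Gstm3 was among them in duodenum and Gsta3 in ileum, with unadjusted edgeR values of 0.0098 and 0.021.

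In GF duodenum the means of Gstm3 at ZT2, 6, 10, 14, 18 and 22 were 227.4, 258.5, 170, 198.3, 227.4 and 243.5 CPM. In convR duodenum they were 555.6, 424.2, 576, 152.5, 158.9 and 307.2 CPM. The convR means were above the GF ones at ZT2, 6, 10 and 22 and below them at ZT14 and ZT18. Both convR libraries at ZT14 are among those that stood apart. For Gsta1 the means in GF ileum were 57.97, 59.94, 89.99, 95.98, 89.21 and 72.37 CPM in the same order of times, and those in convR ileum 33.09, 27.68, 35.41, 51.85, 33.43 and 27.59 CPM. Both were highest at ZT14, yet the cosine did not pass in either (adjusted p = 0.236 and 0.301 by edgeR).

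**Figure D5:**
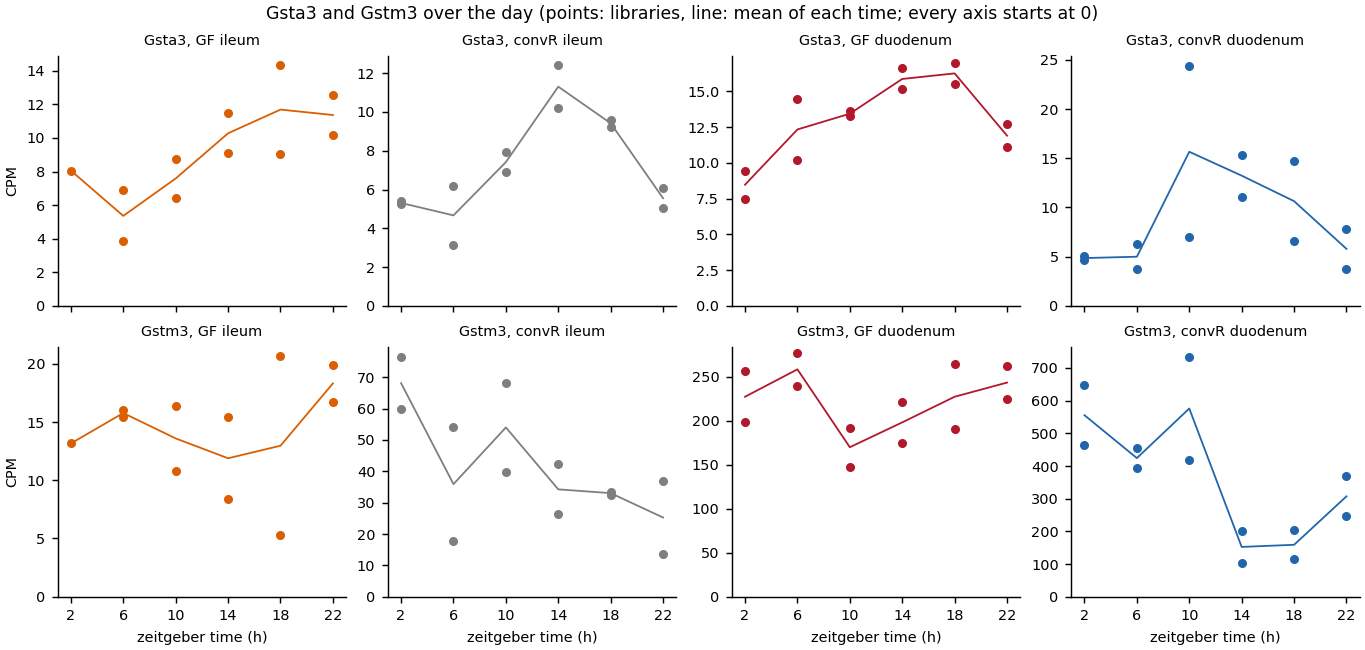
Levels of Gsta3 (top) and Gstm3 (bottom) in each library (points, y axis, CPM from 0) against zeitgeber time (x axis, h), with a line through the mean of each time and a panel for each group. Gsta3 is lowest at ZT6 in both ileum groups, and Gstm3 in convR duodenum lies at 576 CPM at ZT10 and 152.5 CPM at ZT14.

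A list of 23 other glutathione transferases and relatives, among them Ptges, Ltc4s, Alox5ap and Gstcd, had 21 genes in the table and 19 tested. Of these, 9 rose and 2 fell in GF ileum (47.4% rose), and 9 rose and 4 fell in GF duodenum (47.4% and 21.1%). The median log2 differences were 0.14 and 0.17. Over all genes, 19.5% were higher and 22.4% lower in GF ileum, and 22.5% and 23.8% in GF duodenum, and these shares are the background for each list that follows. Gstm7, a Mu gene, rose by 1.51 ± 0.13 in GF ileum and 0.78 ± 0.13 in GF duodenum, and Gstm6 by 0.86 and 0.55. In ileum these Mu genes thus rose where Gstm1 and Gstm3 fell, while Gstm2, Gstm4 and Gstm5 did not pass there. In duodenum Gstm1 and Gstm3 did not pass. Gsto1, the Omega enzyme, rose by 0.28 and 0.26 and Gstp2 by 0.31 and 0.39 in GF ileum and GF duodenum. The prostaglandin synthases fell: Ptges, which makes prostaglandin E, by 1.01 in GF ileum and 0.77 in GF duodenum, and Hpgds, which makes prostaglandin D, by 0.74 and 0.37. In ileum against duodenum, 17 of the 19 were lower in GF mice and 18 in convR mice, where 33.4% and 24.8% of all genes were lower.

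Genes around glutathione went both ways. Of the 20 genes for its supply and use, 8 rose and 6 fell in GF ileum (40% and 30%), and 6 rose and 6 fell in GF duodenum (30% each). Gclc, the catalytic subunit of the rate-limiting enzyme of glutathione synthesis, had 177.8 ± 35.7 CPM in GF ileum and 76.5 ± 13.3 CPM in convR ileum (SD, n = 11 and 12), a difference of 1.26 with an adjusted p of 4.0e-10 by edgeR. Gpx2, the glutathione peroxidase of the gut epithelium, had 64.2 ± 7.85 CPM in GF duodenum and 168 ± 58 CPM in convR duodenum (SD, n = 12 each), a difference of -1.22 with an adjusted p of 4.8e-08. Of 21 tested genes for mercapturate formation and export, 12 rose and 6 fell in GF ileum (57.1% and 28.6%), and 10 rose and 5 fell in GF duodenum (47.6% and 23.8%). Nat8, which acetylates cysteine conjugates, rose by 0.88 in GF ileum (adjusted p = 9.8e-08 by edgeR). Its relative Nat8f2 rose by 1.72 in GF duodenum (0.0031).

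Targets of Nrf2 other than the transferases were split. Of 25 listed, 8 rose and 11 fell in GF ileum (32% and 44%), and 9 rose and 6 fell in GF duodenum (36% and 24%). Ces1g, a carboxylesterase, rose by 1.78 in GF ileum (adjusted p = 5.0e-06 by edgeR). Akr1b8, an aldo-keto reductase, had 2.8 ± 0.744 CPM in GF duodenum and 13.8 ± 16 CPM in convR duodenum (SD, n = 12 each), a difference of -1.88 (adjusted p = 0.00045 by edgeR). Nfe2l2 itself did not pass, with differences of 0.13 in GF ileum (adjusted p = 0.218 by edgeR) and 0.12 in GF duodenum (0.108).

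Of the 18 listed regulators, 6 rose and 1 fell in GF ileum (33.3% and 5.56%), and 10 rose and none fell in GF duodenum (55.6% rose). Ppara, the fatty acid receptor, rose by 0.91 in GF ileum and 0.87 in GF duodenum, and Nr1i3, which encodes Car, by 1.26 and 0.83. Hnf4g, an enterocyte factor, rose by 0.64 and 0.72. Of the factors that bind D-boxes, Hlf and Tef rose by 1.04 and 0.49 in GF ileum and by 1.42 and 0.72 in GF duodenum. Dbp rose by 1.08 in GF duodenum (adjusted p = 0.0176 by edgeR) and did not pass in GF ileum (0.58, 0.164). Ahr was at -0.04 in GF ileum (adjusted p = 0.61 by edgeR) and rose by 0.46 in GF duodenum. The lists were counted, not tested as sets, and they too were chosen with earlier results of these data known.

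The members differed in how they varied among themselves. Within groups, after each group's mean was taken off, log2 levels of Gsta1 and Gsta4 had a Pearson r of 0.914 over the 47 libraries, Gsta1 and Gsta2 0.861, Gsta2 and Gsta4 0.848, and Gstm1 and Gstm3 0.692. The lowest was -0.121 for Gsta3 and Gstm3. The members near each other on chromosomes 9 and 3 thus had the highest r, and shared reads enter the value for Gsta1 and Gsta2.

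Among 12410 other genes, those most like each member over the 47 libraries were given by Pearson r of log2(CPM + 0.5), as a description, since all points share the difference between the tissues. Gsta1 was most like Ugdh, which makes the sugar donor for glucuronidation (r = 0.973), and Acaa2, a mitochondrial thiolase (0.972). Gsta4 and Gsta2 were both most like the bicarbonate transporter gene Slc4a7 (0.981 and 0.980), followed by the lipid hydroxylase gene Cyp4a10 for Gsta4 (0.978) and Nat8f2 for Gsta2 (0.972). Gstm1 and Gstm3 were both most like the cytochrome gene Cyp2c66 (0.951 and 0.957). Gstk1 was most like Retsat, a retinol saturase (0.933), and Acad11 (0.927), and Gstp1 like the acyl-CoA synthetase gene Acsl5 (0.887) and Sec23a (0.881). The values were lower for genes with a small difference between tissues, at 0.835 for Mgst1 with Cth, a gene of cysteine synthesis, 0.811 for Gsta3 with Rev1 and 0.689 for Mgst2 with Acp6.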

How the data were processed

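RNA was measured in 47 libraries of mouse ileum and duodenum from GF and convR mice, at 6 times. Per the labels' protocols, libraries were made from 250 ng of total RNA with a stranded kit after removal of ribosomal RNA, amplified for 12 cycles, pooled by 24 and sequenced as 2 reads of 100 nt. STAR 2.4.0i and build mm10 are named per the submitters' processing notes. Which program counted reads, with which annotation and strand setting, is not given in the sources used here. The deposited table holds raw exon read counts per gene, not normalized by the authors. Its exon lengths were used only for CPM per kb. CPM and all tests were computed here from these counts.

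Genes were kept by filterByExpr (minimum 10), scaled by TMM and tested by edgeR 4.0.16 (R 4.3.3) with its quasi-likelihood test, robust and two-sided, with Benjamini-Hochberg adjustment at 5% over all genes kept. ZT entered as a factor of 6 levels, and rhythm as a 24 h cosine per status in 1 fit per tissue. The exact counts of the member with the fewest, Gsta2 in convR ileum, ran from 1 to 8 per library, which limits its precision. Of 38087 gene IDs, 36308 matched GENCODE M21. Libraries of 1 group and time differed by more than sampling noise (chi-square divided by its degrees of freedom between 16.88 and 145.5 in the 23 pairs). Replicate numbers deviated together at every time only between ileum and duodenum of convR mice (r of 0.228 to 0.556 at 6 of 6 times). The fitting code was checked on simulated counts.

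The members and lists were chosen with earlier results of these data known. All 10 members are named in every comparison. Of the other lists, all further transferases and relatives and all regulators may be named. Of the rest it is the gene with the largest called difference in each tissue. Alternatives were DESeq2 1.42.0, RLE size factors, library size only, no filter, no ZT term or ZT as a factor, a replicate block, and leaving out each library, each replicate number, and the libraries that stand apart.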

Additional observations from a re-analysis of the deposited data

Results flagged for a closer look

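No member of the 10 differed between the tissues in its GF effect past the threshold without a replicate block. Of 99 genes of the other lists 15 did, a share near the 12.3% of all genes called. These were 2 of 19 other transferases and relatives, 4 of 18 regulators and 3 of 20 genes of glutathione supply. The rest were 3 of 21 of mercapturate formation and export and 4 of 25 Nrf2 targets, with Abcc4 in both of these lists. The transferases, Akr1b8 and the regulators are given here. Values are the log2 difference of GF over convR, and the test is the interaction of status and tissue, ileum minus duodenum, by edgeR with 12.3% of all genes called. Gstm7, a Mu-class transferase, was higher in GF mice by 1.51 in ileum and 0.78 in duodenum, a difference of 0.7367 (adjusted p = 0.0086). Hpgds, the prostaglandin D synthase, was lower in GF mice in both, at -0.74 and -0.37, a difference of -0.3653 (0.0262). Akr1b8, an aldo-keto reductase, was at -0.38 in ileum and -1.88 in duodenum, a difference of 1.504 (0.0105). Its convR duodenum level was 13.8 ± 16 CPM (SD, n = 12), a spread wider than its mean.

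Among the regulators the differences were small. Keap1, which holds Nrf2 in check, was at -0.15 in ileum and 0.12 in duodenum, a difference of -0.2583 (adjusted p = 0.00043 by edgeR). Ahr, the aryl hydrocarbon receptor, was at -0.04 and 0.46, a difference of -0.4932 (1.36e-05). Rxra, the partner of Ppara and Car, was at 0.22 and 0.48, a difference of -0.2525 (0.0067). Nfe2l1, a relative of Nfe2l2, was at 0.06 and -0.09, a difference of 0.1565 (0.0486). No explanation of these differences was tested.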

How the results depend on the processing

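Calls of Mgst1 in both tissues and of Gsta1 and Gstp1 in ileum held in all alternatives run. Leaving out all libraries of 1 replicate number ended more calls than any scaling did: without replicate 1 those of Gsta1, Gsta2, Gsta3, Gsta4, Gstk1 and Mgst2 in duodenum (adjusted p of 0.11 to 0.18) and of Gsta3, Gsta4 and Mgst2 in ileum, without replicate 2 those of Gstm1 (-0.24, adjusted p = 0.141) and Gstm3 (-0.81, 0.304) in ileum, with Gsta3 there, Gsta4 and Mgst2 in duodenum and Mgst1 between tissues of GF mice. Each time then has at most 1 library per group. Without the libraries that stand apart, Gsta3 in ileum was lost too (0.32, adjusted p = 0.079). With no ZT term Gsta3 was lost in both tissues, with no filter Gsta4 in duodenum and Gsta3 in ileum, and Gsta2 in ileum could then be tested (1.33, adjusted p = 0.00028). Of counts of calls, all genes: rhythm in GF duodenum was 246 and moved to 574 with DESeq2 and 143 with ZT as a factor, that in convR duodenum was 149 and moved to 626 with DESeq2 and 43 without the libraries that stand apart, that in GF ileum was 170 and moved to 367 and 55, and that in convR ileum was 136 and moved to 379 with DESeq2; the cause was not tested. With libraries or replicate numbers left out, counts ran from 4408 to 8673 for GF against convR in duodenum, 4156 to 7724 in ileum, 409 to 2516 for the difference between tissues, 8151 to 12020 for ileum against duodenum in GF and 6701 to 9273 in convR mice. For rhythm they ran from 1 to 383 in GF duodenum, 0 to 232 in convR duodenum, 1 to 188 in GF ileum, 0 to 258 in convR ileum, and 0 to 0 for both differences. With library size only, the median of all genes moved to -0.137 in duodenum, where 2143 genes were then higher and 6618 lower in GF mice (4041 and 4287 with TMM), and to 0.129 for GF ileum against duodenum, where 7944 were higher and 4601 lower (5940 and 5978). The split was 2316 and 4866 in ileum (3535 and 4052), 1214 and 968 for the difference between tissues (870 and 1461), and 5092 and 3819 for convR tissues (4515 and 4500). Relative to these shifts no called member changed direction, Mgst2 (0.08) and Gsta4 (0.77) in duodenum and Gsta3 (0.32) in ileum lost their calls, as did the rhythm of Gsta3 in GF ileum, and Mgst2 in GF ileum against duodenum gained one (0.16, adjusted p = 0.010).

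Values that changed sign were all of members not called. For ileum against duodenum in convR mice Mgst2 was -0.002656 with DESeq2, -0.002503 with RLE, -0.005707 with no ZT term, -0.001577 with no filter and -0.03738 without the libraries that stand apart, which gave -0.007219 in GF mice and 0.3661 for Gsta2 in the difference between tissues. Left out libraries and numbers gave -0.7238 to 0.1366 for Gstm1 and -0.02697 to 0.3083 for Gstp1 in duodenum, -0.6162 to 0.09448 for Gsta3 and -0.02776 to 0.04815 for Mgst2 between convR tissues, and, for the difference between tissues, -0.9173 to 0.3831 for Gsta2, -0.3939 to 0.2307 for Gstm1 and -0.01439 to 0.07896 for Mgst2.

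The replicate number as a block changed no call of a member within a tissue or between tissues of 1 status, with 8514 genes called in duodenum, 7883 in ileum, 9932 between convR tissues and 11629 between GF tissues. In the difference between tissues (2846 genes) it brought Gstm3 (-1.04, adjusted p = 0.029) and Gstk1 (-0.64, 0.0109) past the threshold and turned Gstm1 to -0.1218. The numbers paired libraries at every time only between convR tissues. Elsewhere the correlations ran from -0.0468 to 0.256 for the statuses in duodenum, from -0.0546 to 0.335 in ileum and from -0.0455 to 0.143 between GF tissues. They were over 0.1 at 2 of 6, 2 of 5 and 1 of 5 times. For rhythm within 1 status the block could not be fitted. Depth limits only Gsta2 in ileum.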
